A study of Mus musculus with 13 samples.

Results

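Replication-dependent histone genes encode the linker histone H1 and the core histones H2A, H2B, H3 and H4 that package newly made DNA. They were taken from the count table by name, as every symbol that began with Hist1h, Hist2h, Hist3h or Hist4h, or with H1f, H2ac, H2bc, H3c or H4c and a digit, and that had at least 10 counts in at least 2 libraries. Of 22997 symbols in the table, 64 matched the names and 55 met the count threshold. They comprised 6 H1, 12 H2A, 14 H2B, 11 H3 and 12 H4 genes. The name pattern also took in H1f0, the linker histone H1.0, which is a replication-independent gene, so its values are given apart where they matter.

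RNA-seq was done on 13 libraries of 50000 sorted mouse bone marrow cells each, gated as CD138+ B220- CD45.2+, on the C57/BL6 background. The VQ group held 5 libraries from recipient mice of 3 transplanted lines, named D1 (2 recipients), D4 (1 recipient) and D5 (2 recipients), with V{kappa}*MYC, the allele Nras LSL Q61R/+ and IgG1-Cre. The tVk12653 group held 2 libraries, both from recipients of the transplanted line tVk12653. The V group held 3 libraries from mice with the genotype V{kappa}*MYC; IgG1-Cre, and the WT group held 3 libraries from wild-type mice. V{kappa}*MYC is a MYC transgene under immunoglobulin kappa control, the Nras allele carries an activating mutation behind a loxP-flanked stop, and IgG1-Cre is active in germinal centre B cells. VQ and V cells shared the MYC transgene and the Cre, whereas WT cells had neither, and only VQ and tVk12653 cells had been transplanted, so transgene, Cre, Nras allele and transplantation cannot be told apart in VQ against WT, nor Nras allele and transplantation in VQ against V. The age, the number of donor mice behind each line and the genotype of the hosts were not given in the sources used here.

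Replication-dependent histone genes lie in clusters, lack introns for the most part, and are transcribed mainly in S phase, when the coactivator NPAT is phosphorylated by cyclin E and CDK2. Their RNA usually ends in a short stem-loop in place of a poly(A) tail. Stem-loop binding protein, encoded by Slbp, holds that stem-loop during processing by the U7 small nuclear ribonucleoprotein, during translation and during degradation at the end of S phase. Resting plasma cells of the marrow are non-dividing, whereas plasma cell tumours keep a dividing fraction. The libraries were made from total RNA with a kit that does not select poly(A), so histone RNA without a tail was counted.

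The genes formed 4 groups in the genome, with coordinates on GRCm38.p6 from RefSeq. On chromosome 13, 19 lay between 21715711 and 22043658 and 28 lay between 23531044 and 23764412. On chromosome 3, 7 lay between 96219885 and 96270192. The remaining one, H1f0, lay on chromosome 15 between 79028212 and 79030504. Just inside the count threshold stood H2bc13 and H3c15, each with at least 10 counts in 4 libraries, H3c10 in 5 and H2bc21 in 6. Just outside stood H1f10, with 44 counts in all and at least 10 in 1 library. The other 8 matching symbols had at least 10 counts in no library. They included the testis histone genes H1f6, H2ac1 and H2bc1, with 23, 5 and 2 counts in all, and H2ac18, Hist1h2ao and Hist1h2ap, with 0, 1 and 3 counts. The sequence of H2ac18 is almost wholly shared with other transcripts, with 3.7% of its 50-base words unique.

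Sequence shared among these genes limits what a count assigned to one of them means. Among 54 members with a GENCODE transcript, the median share of 50-base words found in no other gene was 53.6%, with a range from 6.1% to 100%, and 23 members were under 50%. How reads matching several genes were counted is not given in the sources used here. Levels of single members with a low share, such as H2ac12 at 9.3%, H2ac13 at 9.9%, Hist1h4m at 10.2% and H3c11 at 12.4%, are therefore uncertain in how they divide between near-identical copies.

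The stem-loops of 6 members are shown because this element usually stands in place of a poly(A) tail. Each line gives 26 bases of an annotated transcript, 5′ to 3′ in DNA letters, from GENCODE transcripts on GRCm38, with the stem-loop of 16 bases in capitals. These annotated transcripts run on past the stem-loop, by 155 bases in H2bc8, 330 in H4c9, 369 in H3c6, 770 in H4c4, 840 in H1f2 and 2010 in H2ac6, so the stretches are not their 3′ ends.
H1f2: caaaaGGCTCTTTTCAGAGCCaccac
H2ac6: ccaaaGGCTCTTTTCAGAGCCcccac
H2bc8: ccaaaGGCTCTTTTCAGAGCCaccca
H3c6: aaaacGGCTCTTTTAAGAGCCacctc
H4c9: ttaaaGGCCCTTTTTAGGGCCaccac
H4c4: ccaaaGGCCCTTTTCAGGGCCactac
A stem-loop was found in 36 of the 54 transcripts searched. The letters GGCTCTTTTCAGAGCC were found in 18 of them, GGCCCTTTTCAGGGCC in 6 and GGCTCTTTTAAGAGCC in 5. The 18 transcripts without a match included H1f0, H2bc4 and H2bc21, and most of the others end at or near the stop codon in the annotation.

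The 239 bases between the starts of H2ac6 and H2bc4 are shown because both of these neighbours rose in VQ cells against WT. The sequence, from RefSeq on GRCm38.p6, runs along the minus strand at chr13:23683960-23684198 and reads towards H2ac6, with CCAAT or its reverse complement ATTGG, the octamer ATGCAAAT and the TATA box TATAAA in capitals.
H2ac6: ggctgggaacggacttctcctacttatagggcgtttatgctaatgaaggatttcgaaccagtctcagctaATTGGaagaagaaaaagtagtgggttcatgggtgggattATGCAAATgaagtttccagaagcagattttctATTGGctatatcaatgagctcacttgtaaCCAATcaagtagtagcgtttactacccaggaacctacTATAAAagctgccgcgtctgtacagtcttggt
The 250 bases before the start of H4c9 are shown because H4c9 rose in VQ cells against each of the other arms. They lie on the minus strand at chr13:22041363-22041612, with the letters TATAAA and the core of the H4 subtype element, GGTCCG, in capitals. These TATAAA letters stand near the middle of the 250 bases, away from the start, so they are not called a TATA box here.
H4c9: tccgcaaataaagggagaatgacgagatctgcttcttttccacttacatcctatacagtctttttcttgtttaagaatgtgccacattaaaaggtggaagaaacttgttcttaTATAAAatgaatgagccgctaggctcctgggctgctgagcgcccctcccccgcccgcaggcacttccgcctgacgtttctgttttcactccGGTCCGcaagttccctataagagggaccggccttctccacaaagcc
Motifs were searched on both strands in the 250 bases before the start of 50 members and of 27025 genes in all. The octamer ATTTGCAT, the binding motif of OCT1 (encoded by Pou2f1), was present in 5 of 12 H2A and 6 of 12 H2B genes, in no H1, H3 or H4 gene, and in 1.81% of all genes. In 9 head-to-head pairs of an H2A and an H2B gene, 163 to 248 bases lie between the starts, so the windows overlap. The same site can therefore count for both genes of a pair, for this and the other motifs. TATAAA was present in 26 of 50 members, against 14.3% of all genes, at any position in the window, so a match need not be a TATA box in its usual place. CCAAT was present in 40 of 50 members, with 3 of 11 H4 genes among them, against 37.5% of all genes. GGTCCG was present in 8 of 11 H4 genes, against 7.69% of all genes. CACGTG, the letters of the E box that MYC can bind, was present in 0 of 50 members and in 6.86% of all genes, which says only that these letters are not in these windows.

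The libraries held 2096815 to 8512281 counts. All 12 plasma cell marker genes were detected in VQ, V and WT cells, and Cd38 was at 0 in D4 and in both tVk12653 libraries. Their summed level was 9401 to 11781 counts per 1000000 (CPM, scaled with edgeR's TMM factors) in VQ, 11105 to 14739 in tVk12653, 45507 to 66533 in V and 40388 to 74546 in WT. Neutrophil and granulocyte precursor markers, 17 genes led by S100a9, Ngp and Ltf, summed to 82.3 to 1363 CPM in VQ, 99.97 to 174 in tVk12653, 1994 to 3948 in V and 3616 to 10048 in WT. The erythroid markers, 14 genes led by Slc4a1, Car2 and Ermap, summed to 6.90 to 34.7 CPM in VQ, 13.2 to 14.9 in tVk12653, 22.7 to 72.0 in V and 191 to 1152 in WT. WT replicate 2 held the highest value in both lists. Replicates of a group differed by more than sampling noise, with a chi-square of 5.23 to 15.6 per degree of freedom.

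By group mean, histone RNA made up the largest share of counts in D5 and the smallest in V. The 55 genes took 0.450% and 0.555% of all counts in the D1 recipients, 0.345% in the D4 recipient and 0.674% and 0.804% in the D5 recipients. They took 0.203% and 0.294% in tVk12653, 0.143%, 0.233% and 0.180% in V, and 0.226%, 0.467% and 0.240% in WT. The 5 VQ libraries were all above the tVk12653 and V libraries. WT overlapped with VQ through replicate 2, which was above D1 replicate 1 and D4. Without H1f0 the same held, with D4 at 0.271% just above the higher tVk12653 library at 0.260%. Exact 95% binomial intervals were narrow beside these differences, from 0.138% to 0.149% for V replicate 1 and from 0.796% to 0.813% for D5 replicate 2, and cover counting error only. In bulk RNA of sorted cells, a smaller share of cells in S phase and less histone RNA per cell cannot be told apart.

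**Figure D1:**
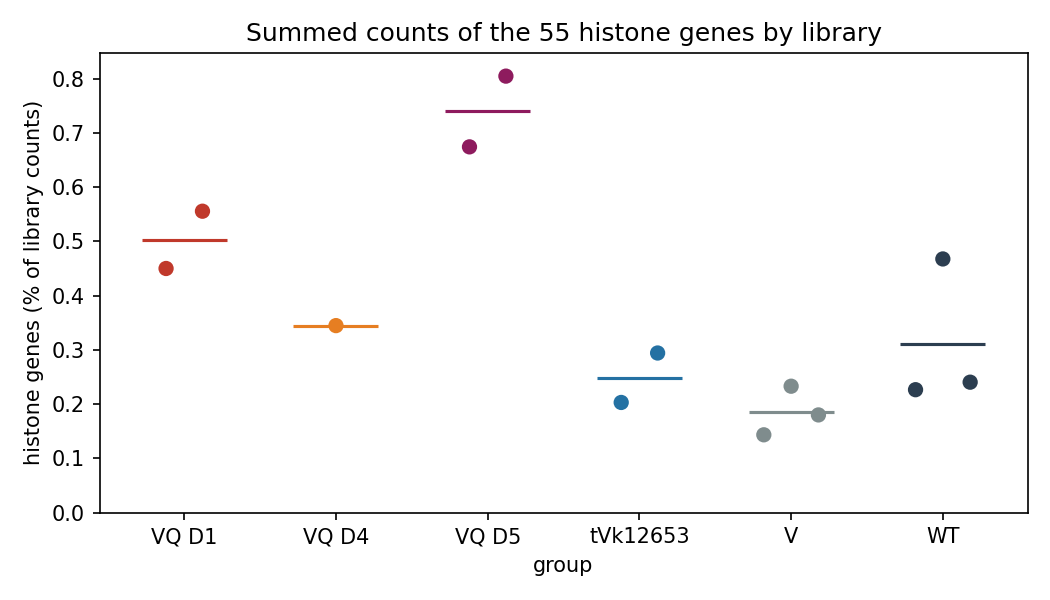
Counts of the 55 histone genes as a percent of all counts in each of the 13 libraries, 1 point per library with a bar at the group mean, groups in the order D1, D4, D5, tVk12653, V and WT. The D5 libraries stand highest at 0.674% and 0.804%, and WT replicate 2 at 0.467% stands apart from the other WT libraries at 0.226% and 0.240%.

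Averaged over the 3 lines, the share was 0.529% ± 0.199 in VQ (SD, n = 3 lines), against 0.249% ± 0.0644 in tVk12653 (n = 2), 0.185% ± 0.0450 in V (n = 3) and 0.311% ± 0.135 in WT (n = 3). No test was made of a sum over genes chosen with these results known. WT replicate 2 was the highest WT library for 52 of the 55 genes, and V replicate 2 was the highest V library for 45. Both were also the highest of their groups in neutrophil markers, with 10048 CPM in WT replicate 2 and 3948 CPM in V replicate 2. The same held for summed RNA of S phase genes (1946 and 1247 CPM) and of mitosis genes (2979 and 2162 CPM). In erythroid and in monocyte and macrophage markers, WT replicate 2 was the highest of WT, at 1152 and 1865 CPM. V replicate 2 was not the highest of V in them, at 30.6 and 684 CPM. The part of other cells and of dividing cells in these values was not tested.

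A few genes carried most of the histone RNA. H1f4 alone made up 16.8% of the summed mean CPM, the 3 most abundant genes 40.5%, the 10 most abundant 68.4% and the 20 most abundant 84.0%. Per kilobase of gene span, in 52 members with a span of up to 3000 bases, levels ran from 1.12 to 789 CPM per kilobase with a median of 50.6. H1f4 (789) and H1f2 (787) were the highest on this scale, and the H4 genes H4c4 and H4c14 followed with 359 and 330 CPM per kilobase. The RefSeq spans of H1f4, H4c4 and H4c14 are 782, 402 and 384 bases, against GENCODE exon lengths of 1930, 1138 and 1630. The order thus depends on the annotation, and that used for counting is not known. In GENCODE, but not in RefSeq, H1f4 overlaps H2bc6 on the same strand, so reads in the overlap could have gone to either.

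Linker histone genes took the largest share of summed histone CPM in every library. H1 genes took 55.5% and 55.3% in D1, 60.7% in D4, 44.0% and 48.8% in the D5 recipients, 60.1% and 65.3% in tVk12653, 61.5%, 55.7% and 65.1% in V, and 65.6%, 57.8% and 66.8% in WT. Only the D5 libraries were under 50%, but this count rests on H1f0. Without H1f0 the H1 share was 51.2% and 49.3% in D1, 50.1% in D4, 41.6% and 46.1% in the D5 recipients, 55.7% and 60.8% in tVk12653, 53.7% to 61.2% in V and 56.8% to 64.2% in WT. H4 genes took 13.5% and 13.7% in D1, 12.5% in D4, 21.3% and 19.2% in the D5 recipients, 13.6% and 11.6% in tVk12653, 18.6%, 17.9% and 14.97% in V, and 12.3%, 14.4% and 11.8% in WT. H2A genes took 13.3% to 17.4% in VQ, 11.9% to 12.6% in tVk12653, 8.52% to 11.9% in V and 10.8% to 14.4% in WT. The shares of H2B, between 6.72% and 10.8%, and of H3, between 3.53% and 6.50%, were smaller in all 13 libraries.

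The first comparison set VQ cells, which carry both the MYC transgene and the mutant Nras allele, against wild-type plasma cells. In a fit of 11 units, with recipients of a line summed, 11 of 54 tested histone genes rose in VQ cells and none fell (edgeR's quasi-likelihood test with Benjamini-Hochberg adjustment over 11933 genes, adjusted p under 0.05). That is 20.4% of the members, against 17.3% of all genes higher and 15.1% lower, so the count is close to the background in this fit. All 54 fold changes were above 0, as were 53.7% of all genes, and the median log2 fold change was 1.22 for members and 0.08 for all genes tested. The number called depended on single libraries: it was 3 without WT replicate 1, 3 without WT replicate 3, 17 without WT replicate 2, 26 without D4 and 6 without line D5. Of all genes, 1358 of 11914, 1140 of 11785, 1393 of 11841, 2367 of 11743 and 2189 of 11760 were higher in these fits, in the same order.

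By class, 4 of 12 H2A, 2 of 14 H2B, 3 of 10 tested H3, 1 of 12 H4 and 1 of 6 H1 genes rose in VQ cells against WT. The share of all genes was 17.3%. The median log2 fold changes were 1.54, 1.02, 1.27, 1.22 and 0.60 in the same order of classes. All libraries of VQ were above all libraries of WT for 9 of the 54 members, against 17.7% of all genes, a share near the background.

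Among H2A genes, H2ac6 had the smallest adjusted p. This gene lies on the minus strand of chromosome 13 at 23683473 to 23683959, and 88.4% of its 50-base words are unique. H2ac6 had 93.1 and 129 CPM in D1, 88.6 in D4, 75.0 and 106 in the D5 recipients, 24.7 and 44.9 in tVk12653, 16.8, 30.9 and 17.8 in V, and 23.6, 37.6 and 25.3 in WT. Every VQ library was above every library of the other arms. The mean was 96.7 ± 12.3 CPM in VQ (SD, n = 3 lines), against 28.8 ± 7.64 CPM in WT (n = 3), and the log2 fold change was 1.84 ± 0.32 (SE, adjusted p = 0.00279).

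The divergent partner of H2ac6, the H2B gene H2bc4, lies on the plus strand at 23684199 to 23692480 and is also reported to give polyadenylated RNA in differentiated cells. H2bc4 had 73.2 and 84.3 CPM in D1, 78.8 in D4, 97.8 and 89.7 in the D5 recipients, 35.4 and 63.8 in tVk12653, 30.6, 46.2 and 31.8 in V, and 33.1, 59.3 and 34.4 in WT. The VQ libraries again lay above all others. The log2 fold change of VQ over WT was 1.06 ± 0.30 (adjusted p = 0.0244).

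The other H2A genes that rose were H2ac11, H2ac12 and Hist1h2an, with log2 fold changes of 2.07 ± 0.52, 2.21 ± 0.69 and 1.85 ± 0.61 and adjusted p of 0.0143, 0.0342 and 0.0423. H2ac11 had 23.95 and 31.1 CPM in D1, 23.3 in D4, 37.6 and 51.4 in the D5 recipients, 5.32 and 6.16 in tVk12653, 1.48, 8.18 and 2.596 in V, and 5.99, 10.7 and 7.39 in WT. H2ac12 had 28.5 and 47.3 CPM in D1, 22.8 in D4, 91.4 and 112 in the D5 recipients, and 7.75, 22.9 and 7.39 in WT. WT replicate 2 and D4 lay side by side for H2ac12, at 22.9 and 22.8 CPM. The unique share of these 3 genes was 21.1%, 9.3% and 14.2%. In the same order, H2ac11, H2ac12 and Hist1h2an passed the threshold in 20, 16 and 9 of 22 alternative runs.

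H2ac15, H2ac4 and H2ac20 were the most abundant H2A genes, and none of them passed the test between VQ and WT. H2ac15 averaged 168 ± 58.9 CPM in VQ and 90.3 ± 50.4 CPM in WT, with a log2 fold change of 0.96 ± 0.46 (adjusted p = 0.136). H2ac4 averaged 118 ± 46.3 CPM in VQ and 70.4 ± 46.3 CPM in WT (adjusted p = 0.239). H2ac20 averaged 102 ± 101 CPM in VQ and 65.5 ± 27.6 CPM in WT (adjusted p = 0.445). In all of them WT replicate 2 was at 97.3 CPM or more and D4 was the lowest VQ library.

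In the H2B class, H2bc8 rose beside H2bc4. H2bc8 had 80.2 and 91.1 CPM in D1, 73.5 in D4, 90.4 and 104 in the D5 recipients, 28.2 and 41.3 in tVk12653, 10.8, 32.0 and 20.4 in V, and 25.4, 54.9 and 26.7 in WT. No VQ library overlapped with another arm, and the log2 fold change over WT was 1.33 ± 0.40 (adjusted p = 0.0305). H2bc3, the third most abundant H2B gene, averaged 56.5 ± 33.7 CPM in VQ and 33.7 ± 23.2 CPM in WT (adjusted p = 0.269). H2bc12, which is also reported as polyadenylated RNA, averaged 25.95 ± 18.5 CPM in VQ and 9.57 ± 6.42 CPM in WT (adjusted p = 0.0770).

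In the H3 class, H3c6, H3c4 and H3c11 rose. H3c6 had 78.0 and 72.0 CPM in D1, 68.4 in D4, 117 and 122 in the D5 recipients, 31.2 and 39.8 in tVk12653, 14.3, 43.4 and 27.6 in V, and 23.6, 50.9 and 31.6 in WT, with a log2 fold change of 1.37 ± 0.42 over WT (adjusted p = 0.0320). H3c4 averaged 29.8 ± 7.08 CPM in VQ and 9.32 ± 7.16 CPM in WT, with a log2 fold change of 1.81 ± 0.54 (adjusted p = 0.0286). H3c11 averaged 8.43 ± 2.04 CPM in VQ and 3.67 ± 1.01 CPM in WT, with a log2 fold change of 1.24 ± 0.43 (adjusted p = 0.0483). These 3 genes had no overlap between VQ and WT libraries. H3c13 and H3c3, also among the most abundant H3 genes, averaged 54.5 ± 32.7 and 28.7 ± 20.3 CPM in VQ, against 28.3 ± 15.8 and 12.9 ± 6.93 CPM in WT, and did not pass the test (adjusted p = 0.151 and 0.181).

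The H4 genes all encode the same protein, and H4c9 alone among them rose in VQ cells against WT. H4c9 lies on the minus strand of chromosome 13 at 22040960 to 22041362. H4c9 had 17.5 and 30.7 CPM in D1, 28.4 in D4, 41.6 and 29.6 in the D5 recipients, 3.47 and 4.35 in tVk12653, 4.44, 8.54 and 3.25 in V, and 6.69, 9.95 and 5.12 in WT. Every VQ library was above every other library. The mean was 29.4 ± 5.82 CPM in VQ, against 7.25 ± 2.47 CPM in WT, and the log2 fold change was 2.12 ± 0.40 (adjusted p = 0.00381). The most abundant H4 genes, H4c4, H4c14 and H4c3, averaged 205 ± 153, 203 ± 174 and 96.2 ± 47.4 CPM in VQ, against 108 ± 57.4, 73.2 ± 41.1 and 72.5 ± 22.9 CPM in WT, and did not pass the test (adjusted p = 0.190, 0.0557 and 0.347).

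**Figure D2:**
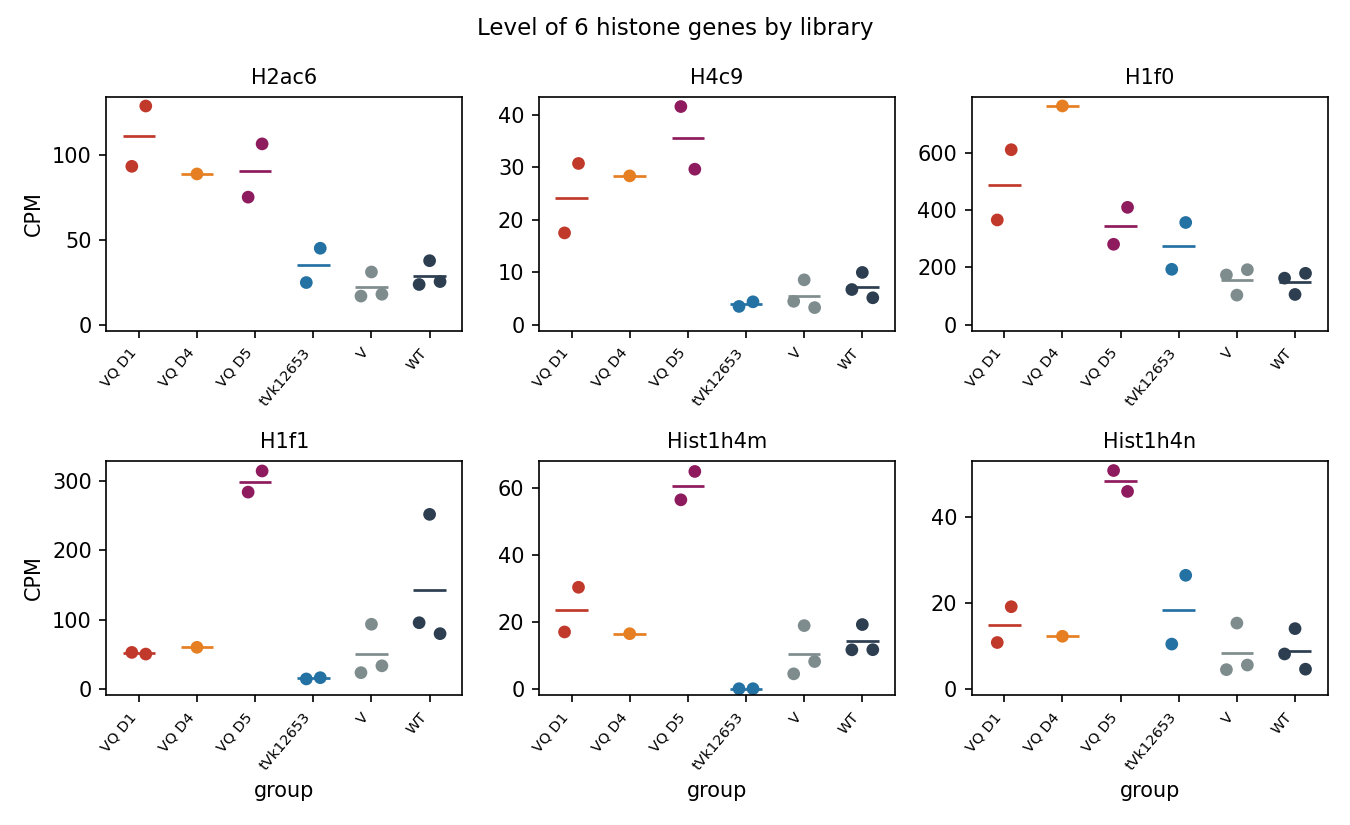
CPM of single histone genes in each of the 13 libraries, 1 point per library, groups in the order D1, D4, D5, tVk12653, V and WT. For H2ac6 and H4c9 the VQ libraries lie above all others, for H1f1 the D5 libraries stand at 284 and 315 CPM, and Hist1h4m is at 0 in both tVk12653 libraries.

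In the H1 class, only the replication-independent H1f0 rose in VQ cells against WT. H1f0 had 365 and 610.0 CPM in D1, 763 in D4, 280.1 and 409 in the D5 recipients, 193 and 356 in tVk12653, 173, 103 and 191 in V, and 162, 105 and 179 in WT. Its order of lines, with D4 highest and D5 lowest, differs from most members, since D5 was the highest line for 49 of the 55 genes. The log2 fold change over WT was 1.93 ± 0.36 (adjusted p = 0.00400). H1f4 averaged 748 ± 328 CPM in VQ and 560.3 ± 188 CPM in WT (adjusted p = 0.356). H1f2, the H1.2 gene, averaged 697 ± 119.9 CPM in VQ and 666 ± 98.7 CPM in WT (log2 fold change 0.13 ± 0.25, adjusted p = 0.723). H1f1 averaged 137 ± 141 CPM in VQ and 142 ± 95.4 CPM in WT (log2 fold change 0.02 ± 0.76, adjusted p = 0.987).

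**Figure D3:**
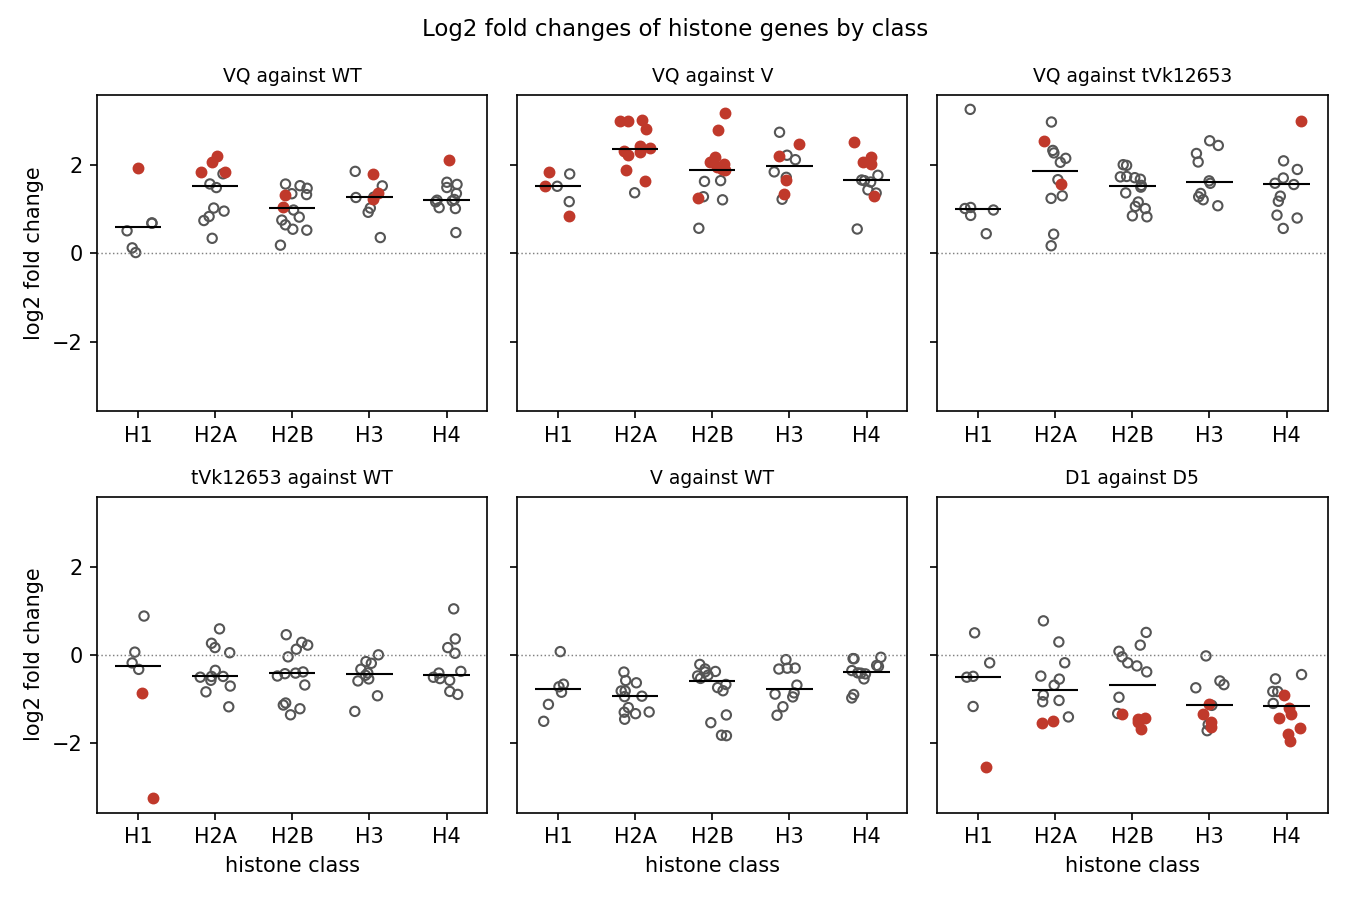
Log2 fold change of each tested histone gene by class in each comparison, 1 point per gene, filled where the adjusted p is under 0.05, with a bar at the class median. Hist1h4m, at 0 in tVk12653, is left out of the panels with tVk12653 as a point and kept in their medians, and all VQ against WT points lie above 0.

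Set against V cells, which carry the MYC transgene and the Cre without the Nras allele, VQ cells had higher levels of most histone genes. Of 54 tested, 32 rose (59.3%) and none fell, against 15.6% of all genes higher and 12.4% lower (edgeR's quasi-likelihood test). The median log2 fold change was 1.87 for members and 0.08 for all genes. This comparison and that with WT share the VQ libraries, so their values are given side by side without a comparison of the lists. By class, 11 of 12 H2A, 9 of 14 H2B, 4 of 10 H3, 5 of 12 H4 and 3 of 6 H1 genes rose. The count was 9 without V replicate 1, 8 without V replicate 3, 49 without D4 and 20 without line D5. Of all genes, 1002 of 11948, 857 of 11918, 2207 of 11743 and 1957 of 11760 were higher in these fits, in the same order.

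The 6 largest fitted changes against V were in H2A and H2B genes. Of these, H2ac12, H2ac11, H2ac8 and H2ac13 had log2 fold changes of 3.03, 3.01, 3.00 and 2.83. H2ac8 had 28.8 and 49.1 CPM in D1, 46.1 in D4 and 80.8 and 83.8 in the D5 recipients, against 1.48, 13.2 and 7.14 CPM in V. The H2B genes Hist1h2bp and H2bc21 had so few counts in V that the size of their change is uncertain. Hist1h2bp had 285 counts over the VQ libraries, against 2, 3 and 4 counts in the V libraries, a ratio of 9.04 after scaling to library size with an exact 95% interval of 4.70 to 19.98 for counting error only (adjusted p = 0.00623 in the fit). H2bc21 had 137 counts in VQ, against 2, 2 and 1 in V, a ratio of 7.83 with an interval of 3.27 to 24.5 (adjusted p = 0.0225). H2ac6 and H4c9 again had the smallest adjusted p, 0.00173 and 0.00259, with log2 fold changes of 2.23 ± 0.33 and 2.52 ± 0.41. In 33 of the 54 genes all VQ libraries were above all V libraries, against 17.1% of all genes.

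VQ and tVk12653 cells are both transplanted tumours, and few histone genes passed the test between them. Of 54 tested, 4 rose in VQ cells (7.41%) and none fell, against 5.97% of all genes higher and 4.19% lower, so the count is close to the background. The median log2 fold change was 1.57 for members and 0.18 for all genes, and for 36 of the 54 members all VQ libraries were above both tVk12653 libraries, against 16.4% of all genes. The 4 were Hist1h4m, H4c9, H2ac6 and H2ac11. H4c9 averaged 29.4 ± 5.82 CPM in VQ and 3.91 ± 0.622 CPM in tVk12653 (n = 2 recipients), with a log2 fold change of 3.01 ± 0.49 (adjusted p = 0.00712). H2ac6 had a log2 fold change of 1.57 ± 0.37 (adjusted p = 0.0277) and H2ac11 of 2.56 ± 0.63 (adjusted p = 0.0322). Without D4, 16 were called, against 1177 of 11743 genes in all, and without line D1 8, against 1136 of 11743. Without WT replicate 2 and WT replicate 3 in turn, 8 and 2 were called, against 549 of 11841 and 379 of 11785 genes. DESeq2 called 21 of 55, against 1136 of 12215. A model of 13 libraries with 1 mean per group called 31 of 55, against 2319 of 12835. Leaving out tVk12653 replicate 1 or 2 left 1 library in that group, and the median log2 fold change of members was then 1.29 or 1.72.

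Between tVk12653 and WT cells, 3 of 54 histone genes fell and none rose, which is 5.56% of the members, against 15.7% of all genes lower and 12.6% higher. The median log2 fold change was -0.42. WT replicate 2 weighed on this value: without it the median was 0.15, and the mean of the other WT libraries was above the tVk12653 mean for 20 of 55 genes. Besides Hist1h4m, the genes that fell in this fit encode linker histones. H1f1 passed the threshold in 15 of 22 alternative runs, and H1f2 in 10 of 22. H1f1 had 14.1 and 15.9 CPM in tVk12653, against 95.4, 252 and 79.6 CPM in WT (log2 fold change -3.25 ± 1.01, adjusted p = 0.0379). H1f2 had 266 and 469 CPM in tVk12653, against 599, 779 and 619 CPM in WT (log2 fold change -0.86 ± 0.29, adjusted p = 0.0484). Neither gene overlapped between the groups. Across all members, 12 of 54 had both tVk12653 libraries below all WT libraries, against 35% of all genes, and 1 had them above, against 32.2%. The 2 tVk12653 libraries come from 1 line, so their spread is that between recipients only. The count was 1 without WT replicate 1, without WT replicate 2 and without V replicate 3, where 1360 of 11914, 1258 of 11841 and 1553 of 11918 genes in all were lower. Without tVk12653 replicate 1 the median log2 fold change of members was -0.32.

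Hist1h4m had no count in either tVk12653 library. Its level was 17.0 and 30.3 CPM in D1, 16.4 in D4, 56.4 and 64.9 in the D5 recipients, 4.44, 18.9 and 8.11 in V, and 11.6, 19.2 and 11.7 in WT. Set against a floor of 3 counts per library, the tVk12653 level was at least 37.7-fold lower than in VQ, at least 11.8-fold lower than in V and at least 15.9-fold lower than in WT (adjusted p = 0.00588 for VQ against tVk12653 and 0.00419 for tVk12653 against WT). Its near-identical copy Hist1h4n, on the same chromosome at 21831792 to 21832197, had a log2 fold change of 1.05 ± 0.77 in tVk12653 against WT and did not pass the test (adjusted p = 0.339). Hist1h4n had 10.8 and 19.1 CPM in D1, 12.2 in D4, 50.9 and 46.0 in the D5 recipients, 10.4 and 26.4 in tVk12653, 4.44, 15.3 and 5.52 in V, and 8.10, 14.0 and 4.55 in WT.

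The stretch where these copies differ is shown because they are otherwise identical over the bases aligned. Over 402 aligned bases the annotated transcripts differ at 1 position, G36A, counted from 1 at the 5′ end of the Hist1h4m transcript, just before the start codon. The 21 bases around that position are printed with it in capitals.
Hist1h4m: ttttgtcttcGtcatgtctgg
Hist1h4n: ttttgtcttcAtcatgtctgg
The copies share 317 words of 50 bases, which is 89.8% of those of Hist1h4m and 83.2% of those of Hist1h4n. The Hist1h4n transcript also runs on past the aligned bases. How reads that match both copies were counted is not given in the sources used here, and the part of shared sequence in the 0 counts was not tested.

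V and WT cells differ in the MYC transgene and the Cre, and the fit of all arms called no histone gene between them. The median log2 fold change was -0.67, 53 of 54 fold changes were below 0, and 7 members had an unadjusted p under 0.05. The same fit called 0% of all genes higher and 0% lower, with 628 genes at an unadjusted p under 0.05, and DESeq2 called 0 members as well. Replicates of V and WT with the same number deviated together, with a correlation of 0.145 to 0.208 across genes for each pair. No label gives such a pairing, and the block that follows was chosen from these same counts. With only V and WT libraries fitted and the replicate number as a block, 12 of 48 tested histone genes fell in V (25.0%) and none rose, against 3.24% of all genes lower, 1.31% higher and 4.56% in either direction. Without pair 1, 2 or 3 this count was 13, 5 and 17, where 480 of 10695, 85 of 10693 and 478 of 10639 genes in all were lower. All V libraries were below all WT libraries for 8 of 54 members, against 9.46% of all genes, and above them for 0, against 8.97%.

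In the blocked fit, H1 genes led those that fell in V. The small errors and adjusted p below rest on a pairing that no label gives and that was chosen from these same counts. The fit of all arms called none of these genes, with H1f2 at an adjusted p of 0.805 (edgeR's quasi-likelihood test). H1f1 had 23.2, 93.2 and 33.1 CPM in V, against 95.4, 252 and 79.6 CPM in WT, and was lower in V at every replicate number (log2 fold change -1.54 ± 0.16, adjusted p = 0.000398). H1f5 had 52.3, 135 and 72.0 CPM in V, against 121, 314 and 132 CPM in WT (log2 fold change -1.10 ± 0.13, adjusted p = 0.000734). H1f3, H1f2 and H1f4 fell by 0.78, 0.73 and 0.65 on the log2 scale, so that 5 of 6 H1 genes fell, and H1f0 had 173, 103 and 191 CPM in V, against 162, 105 and 179 CPM in WT. Of the core histones, 4 of 11 H2A, 2 of 11 H2B, 1 of 8 H3 and 0 of 12 H4 genes fell. H2ac4 fell by 1.42 on the log2 scale, with 12.8, 40.6 and 22.7 CPM in V, against 45.4, 124 and 42.1 CPM in WT (adjusted p = 0.00263). The same fit called lower in V 10 of 17 neutrophil markers, 6 of 10 tested erythroid markers, 9 of 34 S phase genes and 8 of 21 mitosis genes. It called 3.24% of all genes lower, the share to set beside these lists and the histone classes. The part of other cell types in the histone values was not tested.

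**Figure D4:**
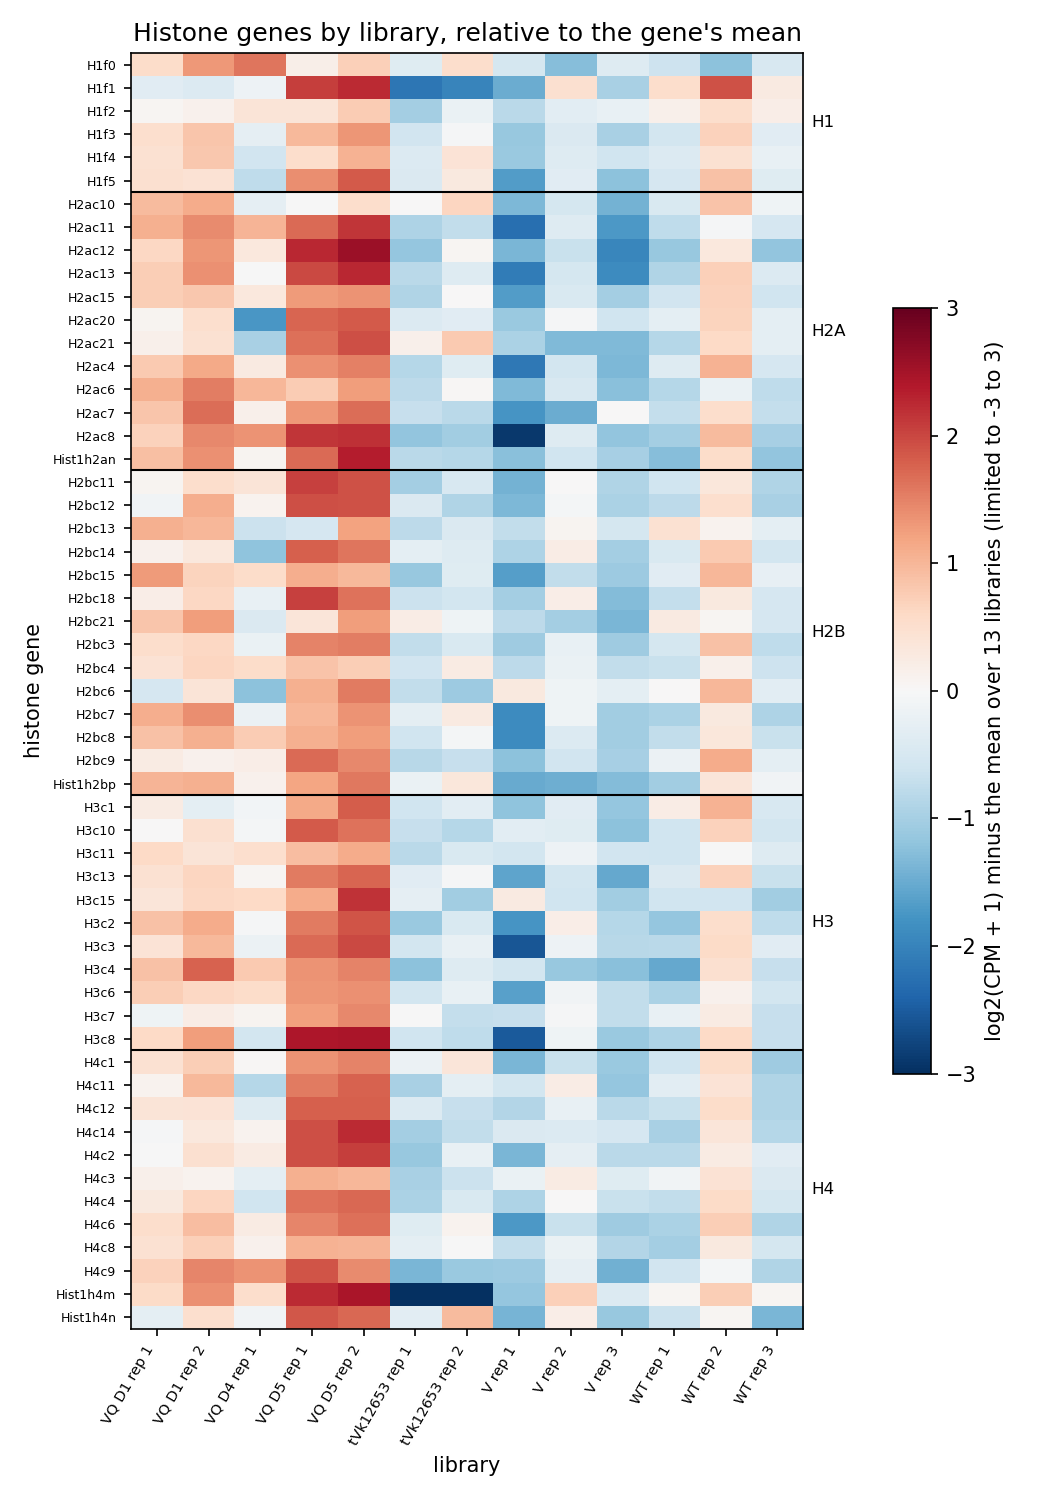
Log2 CPM of each of the 55 histone genes, set against its mean over the 13 libraries, with genes grouped by class and libraries in the order D1, D4, D5, tVk12653, V and WT. D5 replicate 2 is the highest library for 35 genes and V replicate 1 the lowest for 29, and the Hist1h4m row stands out in tVk12653.

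Among the VQ lines, D1 and D5 have 2 recipients each and could be compared directly. In a model of the 13 libraries with a mean for each group, 19 of 55 histone genes were lower in D1 than in D5 (34.5%) and none was higher, against 21.7% of all genes lower and 20% higher. The median log2 fold change of D1 over D5 was -0.96 for members and 0.05 for all genes, and 49 members were below 0. For 42 of 54 members, both D1 libraries were below both D5 libraries, against 36.9% of all genes, and for 1 they were above, against 39.1%. By class, 7 of 12 H4, 5 of 14 H2B, 4 of 11 H3, 2 of 12 H2A and 1 of 6 H1 genes were lower in D1. The count was 30 of 55 without WT replicate 2, where 2925 of 12689 genes in all were lower. With a D1 or D5 library left out, 1 library of that line remained, and the median log2 fold change of members ran from -1.13 to -0.74.

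H4 genes stood first among those lower in D1. H4c14, on chromosome 3 at 96262934 to 96263317, had 91.0 and 118 CPM in D1, against 359 and 449 CPM in D5 (log2 fold change -1.95 ± 0.36, adjusted p = 0.00170). Other libraries lay near the D1 level, with 102 CPM in D4 and 45.8 to 121 CPM in tVk12653, V and WT together. H4c2 had 14.3 and 20.5 CPM in D1, against 57.8 and 63.9 CPM in D5 (log2 fold change -1.78 ± 0.38, adjusted p = 0.00170). H2ac20, also on chromosome 3, had 64.1 and 86.3 CPM in D1, against 207 and 220.3 CPM in D5, and 17.3 CPM in D4 (log2 fold change -1.50 ± 0.34, adjusted p = 0.00483).

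The linker gene H1f1 had the largest difference between these lines among the members called. H1f1, at 23763668 to 23764412 on chromosome 13, had 52.5 and 50.1 CPM in D1, 59.8 in D4, against 284 and 315 CPM in the D5 recipients (log2 fold change of D1 over D5 -2.55 ± 0.69, adjusted p = 0.0176). Its level in D1 and D4 lay below the WT libraries, whereas D5 lay above them. H2bc11, Hist1h4n and H3c1 had log2 fold changes of -1.68 ± 0.42, -1.66 ± 0.56 and -1.64 ± 0.47 (adjusted p = 0.00725, 0.0345 and 0.0119). H2ac6 had 93.1 and 129 CPM in D1 and 75.0 and 106 CPM in D5, which overlap (log2 fold change 0.30 ± 0.32, adjusted p = 0.488). Monocyte and macrophage markers summed to 665 and 769 CPM in D1 and 22.3 and 46.8 CPM in D5. Of these, 3 of 12 were higher in D1 and none lower, against 20% and 21.7% of all genes. Among the lines this sum was highest in D4, at 1635 CPM, with Csf1r, Ccr2 and Cx3cr1 at 0 there. Neutrophil markers summed to 1363 and 403 CPM in D1 and 97.8 and 157 CPM in D5, with 9 of 17 higher, against 20% of all genes. The part of those cells was not tested.

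H2A and H2B genes sit in head-to-head pairs, and 9 such pairs had starts within 400 bases, all of 1 H2A and 1 H2B gene with 163 to 248 bases between. Between VQ and WT, both genes were called in 1 pair, H2ac6 with H2bc4, 1 gene was called in 4 pairs and none in 4. Of all genes, 17.3% were higher there. The pair H2ac11 and H2bc11 had log2 fold changes of 2.07 and 1.54, and the pair H2ac8 and H2bc8 of 1.81 and 1.33. Against V, where 15.6% of all genes were higher, both genes were called in 7 pairs and 1 gene in the other 2. By place in the genome, 5 of 28 and 5 of 19 genes of the chromosome 13 groups rose in VQ against WT, and 0 of 6 tested on chromosome 3. The share of all genes was 17.3%. D1 was lower than D5 for 9 of 28 and 5 of 19 genes on chromosome 13 and 5 of 7 on chromosome 3, against 21.7% of all genes. No place was tested against another. By shared sequence, 6 of 31 genes at 50% unique or more and 5 of 23 under 50% rose in VQ against WT, near the 17.3% of all genes.

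The list of histone genes reported as polyadenylated RNA in differentiated cells held 6 genes, H1f2, H2bc4, H2bc12, H2bc21, H2aw and H4f16. Of these, 1 rose in VQ cells against WT, H2bc4, and 4 rose against V, where 17.3% and 15.6% of all genes were higher. H2bc21 averaged 4.33 ± 2.45 CPM in VQ and 2.39 ± 0.889 CPM in WT (adjusted p = 0.271). H2aw and H4f16 lie outside the name rule and varied widely among the lines. H4f16 had 4.04 and 9.45 CPM in D1, 0.281 in D4, 65.2 and 80.5 in the D5 recipients, 13.2 and 7.97 in tVk12653, 14.3, 22.8 and 12.01 in V, and 16.5, 51.6 and 25.3 in WT. H2aw had 0.538 and 0.326 CPM in D1, 17.0 in D4 and 19.3 and 33.5 in the D5 recipients, against 7.04, 7.74 and 7.68 CPM in WT.

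S phase genes encode the replication machinery. In VQ against WT, 10 of 34 S phase genes rose and none fell, against 17.3% of all genes higher and 15.1% lower, with a median log2 fold change of 1.07. Against V, 24 of 34 rose in VQ, where 15.6% of all genes were higher. In tVk12653 against WT, 3 of 34 rose, against 12.6% of all genes, with a median of 0.49, where histone genes had a median of -0.42. Summed S phase RNA was 2277 and 2909 CPM in D1, 1253 in D4, 4391 and 4661 in the D5 recipients, 2248 and 2431 in tVk12653, 772, 1247 and 907 in V, and 1156, 1946 and 1143 in WT.

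The ratio of summed histone CPM to summed S phase CPM was 1.81 and 1.77 in D1, 2.86 in D4, 1.53 and 1.74 in the D5 recipients, 0.861 and 1.26 in tVk12653, 1.92, 1.94 and 2.10 in V, and 2.03, 2.28 and 2.18 in WT. Both tVk12653 values were below those of the other 11 libraries. D4 was the highest, and WT replicate 2, whose histone share stood apart, had a ratio near those of the other WT libraries. Without H1f0, D4 had a ratio of 2.25, beside 2.23 in WT replicate 2, and the tVk12653 values of 0.776 and 1.12 were still the lowest. No test was made of this ratio, which was chosen after its parts had been seen. Of the mitosis genes, 10 of 22 were higher in VQ against WT (17.3% of all genes), 19 of 22 in VQ against V (15.6% of all genes) and 0 of 22 in tVk12653 against WT (12.6% of all genes). In D1 against D5, 14 of 22 were lower, against 21.7% of all genes.

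**Figure D5:**
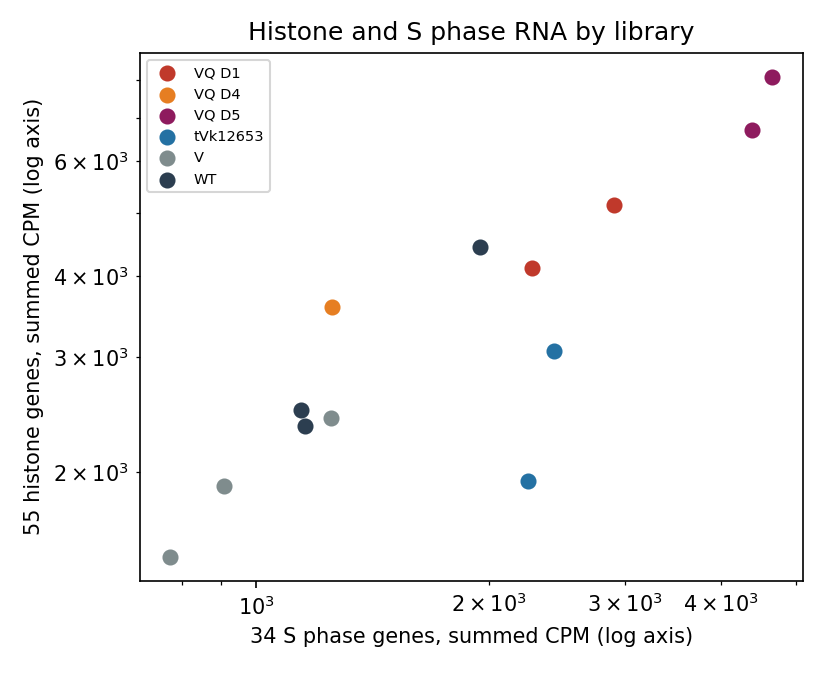
Summed CPM of the histone genes on the vertical axis against summed CPM of 34 S phase genes on the horizontal axis, both on log scales, 1 point per library coloured by group. The tVk12653 libraries, at 1936 and 3069 histone CPM with 2248 and 2431 S phase CPM, lie below the band of the other libraries, and the D5 libraries lie at the upper right.

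Genes that make, mature and carry histones were read beside the members, in VQ against WT, where 17.3% of all genes were higher and 15.1% lower. Of 17 genes of histone pre-mRNA 3′ end formation and degradation, 5 rose in VQ against WT and none fell, with Lsm11, a U7 particle subunit, at 14.9 ± 4.68 CPM in VQ and 5.89 ± 1.17 CPM in WT (log2 fold change 1.42 ± 0.33, adjusted p = 0.00999). Ncbp1, a cap-binding subunit, ran from 85.0 to 140.3 CPM over the VQ libraries and from 46.1 to 69.3 CPM over the WT libraries (adjusted p = 0.00869). Slbp itself had 26.4 and 31.8 CPM in D1, 20.4 in D4, 71.8 and 69.0 in the D5 recipients, 38.8 and 45.3 in tVk12653, 41.4, 56.2 and 43.5 in V, and 47.9, 87.7 and 63.4 in WT. It did not pass the test (log2 fold change -0.65 ± 0.43, adjusted p = 0.269), and D1 and D4 lay below every WT library.

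Of 11 genes of histone gene transcription, 3 rose and 2 fell in VQ against WT, close to the shares of all genes (17.3% higher and 15.1% lower). E2f3, a cell cycle transcription factor, averaged 74.0 ± 17.7 CPM in VQ and 25.6 ± 1.38 CPM in WT (log2 fold change 1.59, adjusted p = 0.000974). Cdkn1a, an inhibitor of cyclin-dependent kinases, averaged 39.7 ± 30.4 CPM in VQ and 4.84 ± 2.88 CPM in WT (log2 fold change 3.15, adjusted p = 0.00806), and Cdkn1b, a related inhibitor, averaged 80.1 ± 16.3 CPM in VQ and 152 ± 19.9 CPM in WT (log2 fold change -0.87, adjusted p = 0.00526). Pou2f1, which encodes OCT1, averaged 152 ± 18.4 CPM in VQ and 262 ± 52.1 CPM in WT (log2 fold change -0.72, adjusted p = 0.0104). Npat did not pass the test, at 61.9 ± 17.0 CPM in VQ and 44.98 ± 8.12 CPM in WT (adjusted p = 0.111).

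Of 16 histone chaperone and import genes, 5 rose in VQ against WT and none fell, against 17.3% of all genes higher and 15.1% lower. Ipo4, an importin of histones, averaged 72.7 ± 12.9 CPM in VQ and 12.7 ± 3.33 CPM in WT (log2 fold change 2.55, adjusted p = 0.000457). Chaf1a, the large subunit of chromatin assembly factor 1, averaged 82.7 ± 35.8 CPM in VQ and 28.9 ± 11.6 CPM in WT (adjusted p = 0.0342). Of 9 tested replication-independent histone variants, only H1f0 rose. H3f3b, which encodes H3.3, averaged 339.6 ± 164 CPM in VQ and 345 ± 58.4 CPM in WT (adjusted p = 0.975), and H2afz, which encodes H2A.Z, averaged 19.0 ± 5.13 CPM in VQ and 9.78 ± 4.63 CPM in WT (adjusted p = 0.0706). The proliferation genes Mki67 and Pcna averaged 2545 ± 1112 and 64.8 ± 33.4 CPM in VQ, against 1148 ± 398 and 43.9 ± 9.64 CPM in WT, with adjusted p of 0.0590 and 0.234.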

How the data were processed

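The authors deposited 1 table of raw read counts per gene symbol for all 13 libraries, and no count was normalized. Reads were aligned with STAR 2.6.1d to GRCm38.p6, per the submitters' processing notes, after RNeasy Micro extraction and library preparation with Takara's SMARTer v1 Pico Input kit, a stranded total RNA kit, per the labels. The counting tool, annotation, strand setting and treatment of multi-mapping reads were not given in the sources used here.

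Counts were tested with edgeR 4.0.16 in R 4.3.3 (TMM factors, filterByExpr with a minimum count of 10 and a minimum total of 15, robust quasi-likelihood test), with p-values adjusted by Benjamini-Hochberg over every gene tested and called under 0.05. The arms were fitted in 1 model of 11 units, with recipients of a VQ line summed. The lines D1 and D5 were set against each other in a model of all 13 libraries with 1 mean per group. Ratios of genes with few counts in V compare counts summed over libraries, scaled by summed TMM library sizes, with exact binomial intervals. CPM values use the TMM factors of the 13 libraries, and a VQ mean is that of 3 line values. V and WT replicates of the same number deviated together (r = 0.145 to 0.208 for each pair, against -0.160 to -0.0558 for other pairs), so V against WT was also fitted with the replicate number as a block. Deviations from a group mean cancel within the group, so positive values for some pairs push those of other pairs below zero. The block was thus chosen from these same counts, and no label gives a pairing. The numbers were not taken to pair any other groups. Recipients of a line share a tumour, and nothing in the labels says how the WT and V samples were collected, so p-values measure the spread between these samples only. The biological coefficient of variation was 0.409 in the model of arms and 0.195 in the model of groups. Intervals and floors cover counting error only.

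Single genes were named by rule: the 3 most abundant of each class, the 6 largest changes and the 3 smallest adjusted p of each comparison among the genes called, the genes reported as polyadenylated, and those beside the count threshold. Other genes came from lists of histone biology, with the 4 smallest adjusted p of each list and 6 fixed names. H2ac6 in D1 against D5, H1f0, H1f3 and H1f5 in V against WT, the divergent pairs and the values of H1f10 and the other symbols under the threshold were chosen after they were seen. So were H3c4 and H3c11 in VQ against WT, whose single values were not followed over the alternatives. The members and lists were chosen with earlier results of these data known. Promoters were matched for 50 members in RefSeq on GRCm38.p6 and transcripts for 54 in GENCODE. The alternatives were other normalization, no low count filter, DESeq2 1.42.0, other units, the replicate block and leaving out each library. The testing script was tested on simulated data.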

Additional observations from a re-analysis of the deposited data

Results flagged for a closer look

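The differences between the lines D1 and D5 stand out because both lines carry the same genotype and each was tested against the other directly, with edgeR's quasi-likelihood test. The log2 fold change of D1 over D5 was -2.55 for H1f1, -1.95 for H4c14, -1.78 for H4c2, -1.68 for H2bc11, -1.66 for Hist1h4n, -1.64 for H3c1 and -1.50 for H2ac20. Both D1 libraries were below both D5 libraries for each of these 7 genes, as for 36.9% of all genes. The 7 genes were picked by this same test, so that order adds nothing to it. Differences between the lines were common, with 41.7% of all genes called in either direction. H1f1, H4c2, H2bc11, Hist1h4n and H3c1 lie on chromosome 13, and H4c14 and H2ac20 on chromosome 3. In the same test, 9 of 17 neutrophil markers and 3 of 12 monocyte and macrophage markers were called higher in D1, against 20% of all genes, and their part was not tested.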

How the results depend on the processing

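The direction of the member counts held under every alternative run, except that 1 or 2 members were called higher in D1 than in D5 under 3 of them, but the counts moved. Numbers in brackets give all genes called in the same direction in the same run. In VQ against WT the count of members higher was 11 of 54 (2065 of 11933). It was 36 of 55 with the replicate block over all 13 libraries (2946 of 12835) and 32 of 55 with 13 libraries and 1 mean per group (3130 of 12835). It was 18 of 54 without WT replicate 2 and D1 replicate 1 (1384 of 11846), a run added after seeing the data. Leaving out single libraries or lines gave 3 (1358 of 11914 without WT replicate 1, 1140 of 11785 without WT replicate 3) to 26 (2367 of 11743 without D4). In VQ against V it was 32 (1865 of 11933). When single libraries were left out it was 8 (857 of 11918 without V replicate 3) to 49 (2207 of 11743 without D4). In VQ against tVk12653 it was 4 (712 of 11933), with 21 by DESeq2 (1136 of 12215), 43 with the replicate block (2389 of 12835) and 31 with 13 libraries (2319 of 12835). Without single WT, V or VQ libraries it was 2 (379 of 11785 without WT replicate 3) to 16 (1177 of 11743 without D4). With the tVk12653 recipients summed the median log2 fold change of members was 1.55. In tVk12653 against WT the count lower was 3 (1868 of 11933), with 1 without a low count filter (1554 of 20284), 8 with the replicate block (3241 of 12835) and 6 with 13 libraries (3362 of 12835). Without single WT, V or VQ libraries it was 1 to 3, where the genes lower in all ran from 1258 without WT replicate 2 to 2191 without D4. With recipients summed the median log2 fold change of members was -0.42. In V against WT the count lower was 0 (0 of 11933), with 4 with the replicate block over 13 libraries (48 of 12835) and 0 without any single library. It was 12 with the replicate block in V and WT alone (341 of 10510). Without a pair, a run added after seeing the data, it was 5 (85 of 10693) to 17 (478 of 10639). In D1 against D5 the count lower was 19 (2783 of 12835), with 34 without a low count filter (2824 of 20284) and 31 with the replicate block (2855 of 12835). Without single libraries of the other groups it was 17 to 30, with 30 without WT replicate 2 (2925 of 12689). The count higher was 0, with 2, 1 and 0 to 1 in the same order. The numbers were taken as a pairing for V and WT only, and no label gives it. The replicate block over 13 libraries rests on shared numbers alone.

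The summed histone share fell to 0.407% in D1, 0.309% in D4 and 0.640% in D5 without H1f4, stood at 0.405% in D4 and 0.233% in V without the 20 most abundant genes in the total, and at 0.271% in D4 without H1f0. In VQ against WT without line D5, 3 members that were not called changed sign: H1f2 (-0.048 to 0.25 over single libraries or lines left out), H2ac20 (-0.41 to 1.25) and H4c3 (-0.057 to 0.75). H3f3b, not called, had log2 fold changes of -0.051 with relative log expression factors, -0.044 by DESeq2, -0.13 with the replicate block, -0.13 with 13 libraries, -0.048 without WT replicate 2 and D1 replicate 1, and -0.41 to 0.23 without single libraries or lines. The cause was not tested. Low counts limit H2bc21, H3c15 and Hist1h2bp, and shared sequence limits how counts divide between copies.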
